A study of Mus musculus with 50 samples.

Results

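The 10 genes described here encode products by which megakaryocytes and platelets are recognised: the fibrinogen receptor integrin (Itga2b and Itgb3), the von Willebrand factor receptor complex (Gp1ba, Gp1bb, Gp9 and Gp5), the collagen receptor Gp6, and the granule products Selp, Vwf and Pf4. They were chosen by name as genes of this lineage, with earlier results of these data known, and all 10 had a row among the 33924 gene rows of both count tables. The series holds 50 mouse RNA-seq libraries in 16 groups, from a study that modelled leukaemia by activating mutations in vivo with Cre, Dre or Flp recombinase. The first table holds 30 libraries of LSK cells (lineage-negative, Sca-1+, Kit+ stem and progenitor cells) and GMP cells (granulocyte-macrophage progenitors), from wild-type (WT) mice at 4 weeks and from mice carrying a mutant allele of Flt3, a receptor tyrosine kinase, at 2, 4, 6 and 8 weeks, with 3 libraries per cell type and time. The second table holds 20 libraries, all from mice with mutant Flt3 and a further mutation: Npm1 Flt3 LSK and GMP (4 libraries each), Dnmt3a Flt3 LSK and GMP (3 each), and lineage-negative (Lin-) stem and progenitor cells of Npm1 Flt3 mice treated for 7 days with vehicle or with tamoxifen (TAM), which deletes the mutant Flt3 allele (3 each). The second table has no WT group, so its libraries were compared only with each other. Mice were taken at the stated time or when symptomatic; the promoters that drive the recombinases, the exact alleles and the ages of the animals are not given in the sources used here.

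Megakaryocytes arise from stem and progenitor cells in the bone marrow under the control of transcription factors such as Gata1, Gata2, Fli1 and Runx1. Itga2b (CD41) and Itgb3 (CD61) pair to form the integrin that binds fibrinogen when platelets aggregate. Gp1ba, Gp1bb, Gp9 and Gp5 assemble into the GPIb-IX-V complex, which tethers platelets to von Willebrand factor, the protein made by Vwf. P-selectin (Selp), Vwf and platelet factor 4 (Pf4) are stored in alpha granules. Several of these genes are also active outside megakaryocytes: Itga2b, Selp, Vwf and Pf4 are transcribed in part of the stem cell compartment, Itga2b is found on mast cell progenitors, and endothelial cells make Vwf and Selp.

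In mm10 with GENCODE M21 gene models, Itga2b (chr11:102453297-102470122, minus strand), Itgb3 (chr11:104608000-104670476, plus) and Gp1ba (chr11:70639122-70642036, plus) lie on chromosome 11. Gp9 (chr6:87778072-87779768, plus) and Vwf (chr6:125546774-125686679, plus) lie on chromosome 6, and Gp1bb (chr16:18620317-18622403, minus) and Gp5 (chr16:30307685-30310779, minus) on chromosome 16. Pf4 is at chr5:90772435-90773383 (plus), Gp6 at chr7:4363965-4397744 (minus) and Selp at chr1:164115264-164150026 (plus). Counts were per gene, so exons and transcripts are not separated.

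Depth differed between the tables. In the first table, 29 libraries held 306571 to 8249135 counts and at least 10528 detected genes, while Flt3 8-week GMP replicate 2 held 1942 counts over 988 genes. That library had no count for any of the 10 genes and was left out of the fits and group levels below. The 20 libraries of the second table held 15053592 to 128057407 counts. Dnmt3a Flt3 LSK replicate 1 and Dnmt3a Flt3 GMP replicate 2 carry a title and a sample code that name different cell types, so they were left out of the fits. Their values are printed with their group as titled: the LSK marker Ly6a was at 44.7 to 62.5 counts per 1000000 counts of the library (CPM) in the 3 libraries titled LSK and at 2.21 to 4.19 CPM in the 3 titled GMP. Sca-1, encoded by Ly6a, separated the sorted WT and Flt3 groups too, with 84.1 to 380 CPM in LSK and 1.97 to 18.1 CPM in GMP libraries. WT, Flt3, Npm1 Flt3 and Dnmt3a Flt3 samples come from separate series of sample codes, so a difference between genotypes and one between code series cannot be told apart. WT libraries are from 4 weeks only, so at other weeks an effect of mutant Flt3 and one of time cannot be told apart. The labels do not say which library came from which of 2 kits, a paired-end kit and a 3'-end kit, so levels were not compared between the tables, nor between genes except in 1 ratio followed across libraries.

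Promoters of the members are shown because most of these genes moved together across the WT and Flt3 libraries. RefSeq promoters (GRCm38.p6) were found for 8 of the 10 genes, without Itgb3 and Vwf. The sequences are the 250 bases before the transcription start of Pf4, a granule chemokine (chr5:90772185-90772434, plus strand), of Gp9, Gp1ba and Gp5 of the GPIb-IX-V complex (chr6:87777820-87778069, plus; chr11:70638872-70639121, plus; chr16:30310782-30311031, minus) and of the collagen receptor gene Gp6 (chr7:4397745-4397994, minus), written 5′ to 3′ on the gene's strand. Capitals mark every match, on either strand, to a GATA motif (the letters AGATAA or the letters AGATAG or the letters TGATAA or the letters TGATAG) or an ETS motif (the letters AGGAAG or the letters CGGAAG), the families of motif named for GATA factors and for ETS factors such as Fli1.
Pf4: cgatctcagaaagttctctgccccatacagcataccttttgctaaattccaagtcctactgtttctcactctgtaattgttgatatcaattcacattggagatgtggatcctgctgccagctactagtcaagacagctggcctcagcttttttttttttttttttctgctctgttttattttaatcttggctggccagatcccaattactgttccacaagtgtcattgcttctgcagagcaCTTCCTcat
Gp9: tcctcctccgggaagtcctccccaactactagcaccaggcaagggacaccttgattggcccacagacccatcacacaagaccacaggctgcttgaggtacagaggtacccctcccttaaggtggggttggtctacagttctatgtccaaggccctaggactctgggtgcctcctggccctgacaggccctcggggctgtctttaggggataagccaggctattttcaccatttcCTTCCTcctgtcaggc
Gp1ba: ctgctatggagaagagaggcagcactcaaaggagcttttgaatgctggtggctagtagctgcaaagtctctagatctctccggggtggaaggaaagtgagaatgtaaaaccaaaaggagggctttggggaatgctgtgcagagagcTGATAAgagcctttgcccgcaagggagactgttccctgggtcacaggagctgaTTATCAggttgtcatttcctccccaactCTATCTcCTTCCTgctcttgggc
Gp5: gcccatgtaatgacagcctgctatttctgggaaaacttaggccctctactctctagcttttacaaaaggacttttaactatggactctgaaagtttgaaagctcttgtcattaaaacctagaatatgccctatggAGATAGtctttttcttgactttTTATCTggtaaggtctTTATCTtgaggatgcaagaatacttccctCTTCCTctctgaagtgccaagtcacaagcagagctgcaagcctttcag
Gp6: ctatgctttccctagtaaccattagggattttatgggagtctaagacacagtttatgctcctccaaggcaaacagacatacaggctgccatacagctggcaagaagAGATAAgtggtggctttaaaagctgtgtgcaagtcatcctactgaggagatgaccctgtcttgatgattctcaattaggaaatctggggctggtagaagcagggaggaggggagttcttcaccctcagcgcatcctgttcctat
Gp1ba and Gp5 each held 3 GATA matches and 1 ETS match, Pf4 and Gp9 held 1 ETS match and no GATA match, and Gp6 held 1 GATA match. Over the 8 genes, 4 held a GATA match, 7 an ETS match and 3 both. Among 32851 RefSeq promoters cut to the same 250 bases, 26.5% held a GATA match, 39.2% an ETS match and 9.21% both. These matches describe the letters in the window; binding was not measured.

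Wild-type LSK cells held more of these transcripts than wild-type GMP cells. Itga2b, the alpha chain of the fibrinogen receptor, was at 140, 187 and 127 CPM in WT LSK replicates 1 to 3 and at 42.4, 55.2 and 27.5 CPM in WT GMP. The 2 groups did not overlap, and the log2 difference was 1.49 ± 0.27 (SE; adjusted p = 4.07e-05, edgeR's quasi-likelihood test with Benjamini-Hochberg adjustment, as for all adjusted p below unless another tool is named). Its partner Itgb3 was at 11.2, 9.89 and 4.61 CPM in LSK and 0.985, 3.98 and 4.02 CPM in GMP, which did not pass (1.04 ± 0.72, adjusted p = 0.29). In all, 5 of the 9 members tested were higher in LSK and none was lower, against 15.5% of all tested genes called higher; the members' median log2 difference was 1.70 and that of all 10619 genes 0.13.

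Within the GPIb-IX-V complex, Gp9 (62.8, 56.9 and 53.4 CPM in LSK; 16.8, 14.9 and 10.7 CPM in GMP) and Gp5 (54.0, 63.0 and 49.5 CPM against 9.85, 11.9 and 8.72 CPM) were higher in LSK by 1.70 ± 0.40 and 2.09 ± 0.53 (log2). Gp1ba and Gp1bb had higher values in every LSK library than in any GMP library, but their adjusted p were 0.0898 and 0.139. Gp1bb passed when the animal number in the sample codes was a block (adjusted p = 0.0351) and with no filter on low counts (0.0143). Reads of Gp1bb are uncertain in any case, since it overlaps Sept5 on the same strand of chromosome 16. Gp6 had no count in any WT library, which allows at most 0.479 CPM over the 3 LSK libraries and 0.665 CPM over the 3 GMP libraries.

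Of the granule genes, Selp was at 99.3, 77.9 and 135 CPM in WT LSK and 10.8, 18.4 and 26.8 CPM in WT GMP (2.13 ± 0.37, adjusted p = 1.39e-05). Vwf was at 50.2, 21.0 and 19.6 CPM against 5.91, 0.996 and 2.68 CPM (3.09 ± 0.67, adjusted p = 0.000459). Pf4, at 615, 750 and 474 CPM in LSK and 346, 324 and 261 CPM in GMP, did not overlap, yet the log2 difference of 0.63 ± 0.40 did not pass (adjusted p = 0.262). Selp overlaps 2 genes on the opposite strand, and the labels do not say whether counting used strand. Of 10 endothelial marker genes 6 were tested and 4 of them were higher in LSK, as Vwf and Selp were: Tek (5.52 ± 1.14), Emcn (4.15 ± 0.74), Tie1 (3.06 ± 0.71) and Egfl7 (1.52 ± 0.19). The summed level of the 10 genes was 349 to 416 CPM in WT LSK and 81.2 to 121 CPM in WT GMP. Most of it was Egfl7, at 274 to 306 CPM and 53.7 to 99.5 CPM. The endothelial cadherin gene Cdh5 was at 0 to 0.384 CPM in WT LSK and at 0 in WT GMP, and Sele was at 0 in WT LSK. Their part in the result was not tested. Tubb1, the tubulin of mature megakaryocytes and platelets, was at 0 in every WT library.

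**Figure D1:**
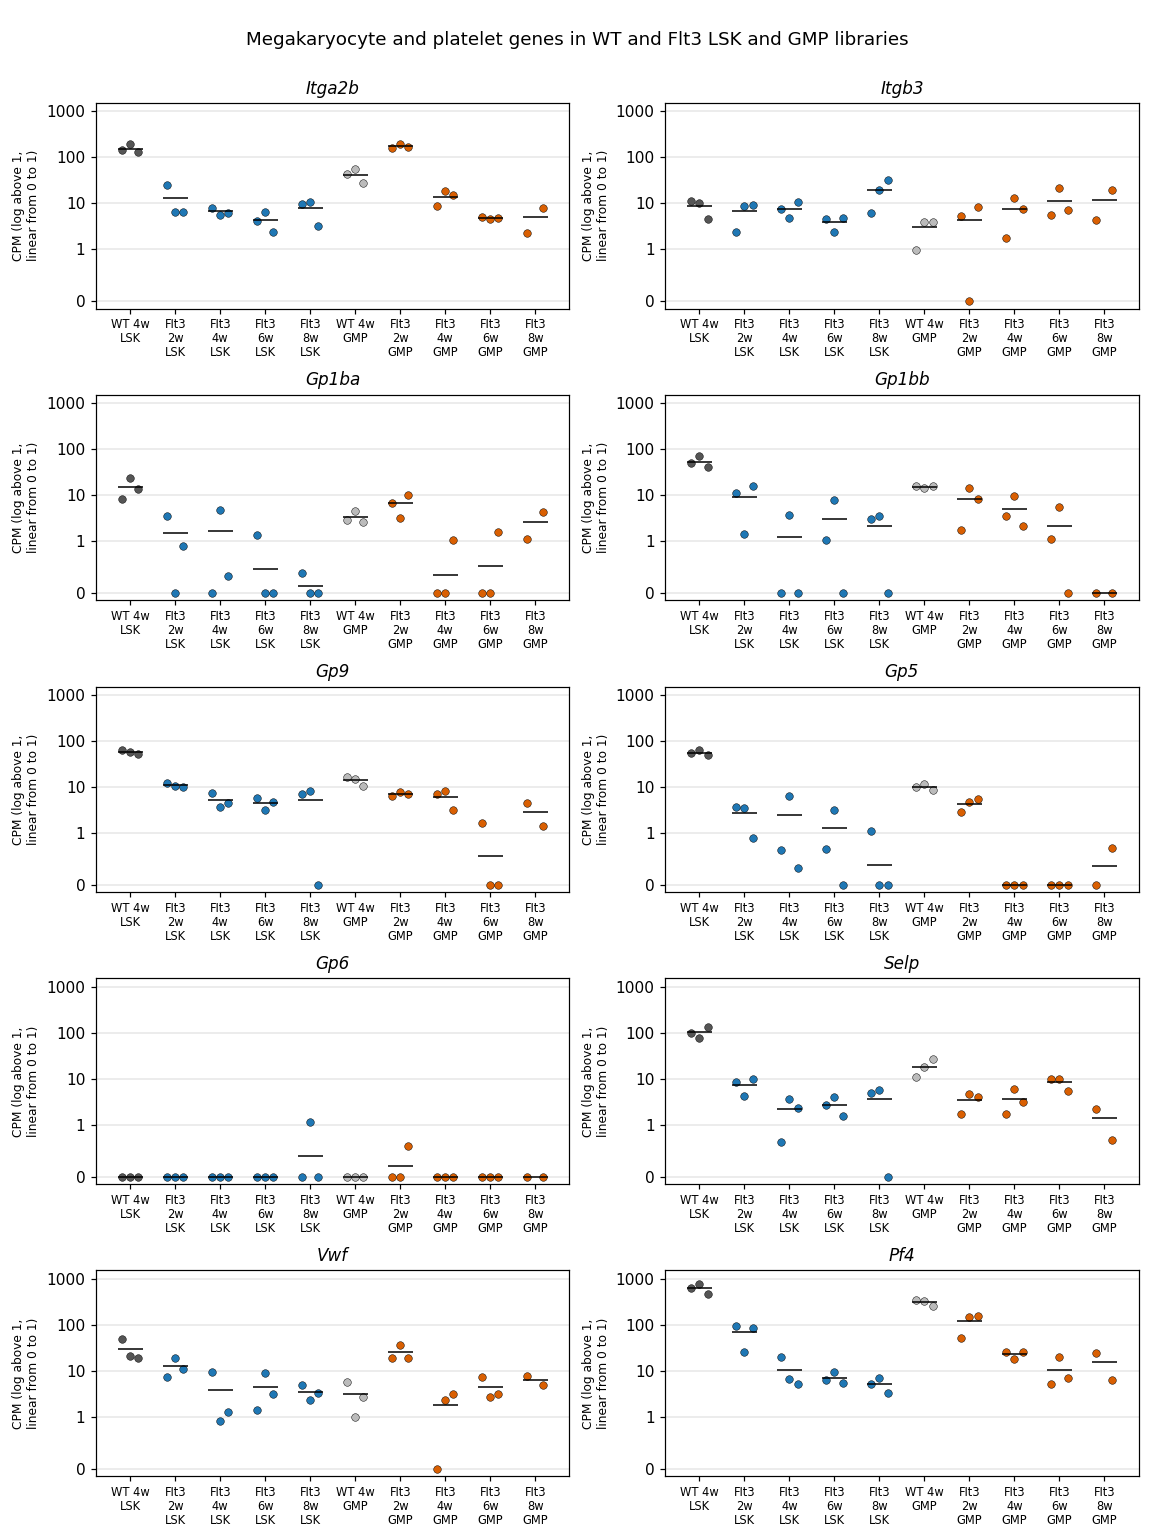
CPM of the 10 genes in each WT and Flt3 library (points) with the group mean (line), by cell type and week; the axis is logarithmic above 1 CPM and linear from 0 to 1, and Flt3 8-week GMP replicate 2 is left out. Most genes stand highest in WT LSK, and Itga2b in Flt3 GMP at 2 weeks (159 to 191 CPM) stands above both WT GMP and later Flt3 GMP.

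In LSK cells with mutant Flt3, 8 of the 9 tested members fell. Of these, Vwf came closest to overlap, at up to 19.5 CPM in Flt3 LSK and from 19.6 CPM in WT LSK. Pf4 went from 474 to 750 CPM in WT LSK to 3.26 to 95.6 CPM (median 6.83) over the 12 Flt3 LSK libraries, and Itga2b from 127 to 187 CPM to 2.35 to 25.4 CPM (median 6.43). On the log2 scale, comparing the mean of the 4 times with WT, Gp5 fell by 5.07 ± 0.42, Selp by 4.66 ± 0.26, Gp1bb by 4.13 ± 0.58, Gp1ba by 4.04 ± 0.66 and Vwf by 2.43 ± 0.44 (adjusted p between 2.24e-13 and 0.000293). Against this count, 8.07% of the 9892 tested genes were called lower and 6.89% higher; the members' median was -4.13 and that of all tested genes -0.00. The same 8 genes were called in each of the 15 fits that left out 1 library, and without the 2-week libraries. A lower level in bulk RNA can reflect fewer cells with the transcript or less transcript per cell, which cannot be told apart here.

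Itgb3 was the exception. Its level in WT LSK, 4.61 to 11.2 CPM, lay inside the range of the 12 Flt3 LSK libraries, 2.42 to 32.6 CPM with a median of 6.70 CPM, and the log2 difference was -0.01 ± 0.39 (adjusted p = 0.995). In the integrin pair, then, the alpha chain transcript fell and the beta chain transcript did not pass the test. Itgb3 also pairs with integrin alpha V in other cell types.

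The 4-week libraries allow Flt3 to be compared with WT at the same stated time. Genotype and sample code series cannot be told apart there either. In LSK at 4 weeks Itga2b was at 8.02, 5.62 and 6.27 CPM, Pf4 at 20.0, 6.55 and 5.28 CPM, and Selp at 0.668, 3.74 and 2.31 CPM, each far below the lowest WT LSK library. The same number of members, 8 of 9, was lower, where 5.6% of all genes were called lower, with changes from -3.00 ± 0.67 for Vwf to -5.92 ± 1.06 for Gp1bb. The Gp1ba call (-3.45 ± 0.92, adjusted p = 0.0132) was lost without Flt3 4-week LSK replicate 1 (0.0832) or 3 (0.116) or without WT LSK replicate 2 (0.0604). Gp1ba was at 0, 4.68 and 0.33 CPM in these Flt3 libraries.

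Other genes of the megakaryocyte programme moved the same way in Flt3 LSK, though less uniformly. Of 10 regulator genes of the lineage, 7 fell and none rose, among them Gata1 by 5.41 ± 0.31, Gata2 by 2.92 ± 0.20 and Zfpm1, the Gata1 cofactor, by 2.28 ± 0.25. Of 16 other platelet receptor and adhesion genes 8 were tested, 4 fell and 1 rose; Esam, a junction protein also found on stem cells, fell by 3.65 ± 0.28, and the scavenger receptor gene Cd36 rose by 2.83 ± 0.48. Among 8 tested genes for other granule products, 3 fell, with Mmrn1 (multimerin) lower by 4.61 ± 0.61, and Sparc rose by 2.87 ± 0.62. Of 11 tested signalling and eicosanoid genes 7 fell and 1 rose, with Gng11 lower by 5.05 ± 0.34 and the cyclooxygenase gene Ptgs1 by 3.36 ± 0.23. Of 8 tested cytoskeleton and release genes 2 fell, 1 rose and 5 did not pass.

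Markers of other cell types changed with the members in LSK, and their part in the result was not tested. The summed level of 8 erythroid genes was 501 to 681 CPM in WT LSK and 30.7 to 194 CPM in Flt3 LSK, and 7 of the 8 fell while 1, Tfrc, rose. Tfrc was at 15.4 to 33.0 CPM in WT LSK and 26.7 to 74.7 CPM in Flt3 LSK, and the Flt3 sum includes this rise. The summed level of 10 long-term stem cell genes was 310 to 463 CPM in WT LSK and 13.1 to 104 CPM in Flt3 LSK, and 6 of the 7 tested fell. The summed level of 8 macrophage genes was 331 to 2139 CPM in WT LSK and 12.9 to 58.8 CPM in Flt3 LSK, and all 8 fell. The summed level of the 10 endothelial genes was 349 to 416 CPM in WT LSK and 147 to 284 CPM in Flt3 LSK, and 5 of the 6 tested fell. Most of that sum was Egfl7, at 274 to 306 CPM in WT LSK and 101 to 249 CPM in Flt3 LSK.

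Within Flt3 LSK, the 2-week libraries stood between WT and the later times for part of the list. Pf4 was at 95.6, 25.3 and 84.1 CPM at 2 weeks and at 3.26 to 20.0 CPM (median 6.31) in the 9 libraries of 4 to 8 weeks, with no overlap and a log2 difference of 3.47 ± 0.46 (adjusted p = 0.000278). Vwf (7.26, 19.5 and 11.0 CPM against 0.936 to 9.35), Selp (8.47, 4.33 and 10.1 CPM against 0 to 5.93) and Gp9 (12.1, 10.8 and 10.1 CPM against 0 to 8.30) were higher at 2 weeks by 2.01 ± 0.56, 1.56 ± 0.45 and 1.27 ± 0.36. Gp9 did not overlap between the times, while 1 library each of Vwf and Selp at 2 weeks lay within the later range. Itga2b was higher by 1.16 ± 0.39, a call that rests on replicate 1: the 3 libraries held 25.4, 6.50 and 6.40 CPM, and without replicate 1 the difference was 0.29 (adjusted p = 0.709). Leaving out Flt3 4-week LSK replicate 2 or 3, 6-week replicate 1 or 3 or 8-week replicate 1 also ended that call (adjusted p 0.0502 to 0.0591). The Gp9 call was lost without any 1 of the 3 2-week libraries (0.0542 to 0.0563), that of Selp without replicate 1 (0.0575) or 3 (0.178) and that of Vwf without replicate 2 (0.167) or 3 (0.0505), while Pf4 was called in every such fit. With these, 5 of 9 members were higher at 2 weeks, where 11% of all genes were called higher. The count fell to 2 without Flt3 2-week LSK replicate 1 or without replicate 3.

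Compared with WT LSK, which also served the comparisons above, 2-week Flt3 LSK were lower for 6 of 9 members, where 7.99% of all genes were called lower. Itga2b was lower by 3.34 ± 0.37, Pf4 by 2.86 ± 0.44 and Selp by 3.49 ± 0.39, while Vwf (-0.92 ± 0.59, adjusted p = 0.32) and Gp1bb (-2.21 ± 0.79, adjusted p = 0.0654) did not pass. The Gp1ba call (-3.11 ± 1.00, adjusted p = 0.0275) was lost without Flt3 2-week LSK replicate 2 (0.142) or 3 (0.1) or without WT LSK replicate 2 (0.0969) or 3 (0.0546).

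In GMP cells the Flt3 libraries differed from WT in separate ways at 2 weeks and later, with WT at 4 weeks only. Itga2b was at 159, 191 and 168.7 CPM in Flt3 GMP at 2 weeks, above the 27.5 to 55.2 CPM of WT GMP, by 2.16 ± 0.24 on the log2 scale (adjusted p = 1.61e-08). Vwf was at 19.5, 36.8 and 19.3 CPM, above the 0.996 to 5.91 CPM of WT GMP, by 3.19 ± 0.61 (adjusted p = 0.00012). Selp moved the other way, to 1.72, 4.80 and 4.12 CPM from 10.8 to 26.8 CPM, and was lower by 2.30 ± 0.56 (adjusted p = 0.00181). These 3 were the calls among 8 tested members; 15.4% of all genes were called higher and 12.2% lower.

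The tested genes of the GPIb-IX-V complex and Pf4 were not called in either direction at 2 weeks. Gp9 was at 6.32, 8.01 and 7.27 CPM, below each WT GMP library, and Gp5 at 2.87, 4.80 and 5.58 CPM, also below each, but neither passed (-0.86 ± 0.56 and -1.04 ± 0.65). Gp1bb was at 1.72, 14.4 and 8.37 CPM against 14.4 to 15.8 CPM in WT GMP (-0.91 ± 0.64, adjusted p = 0.321). Pf4 was at 52.9, 149 and 159 CPM against 261 to 346 CPM in WT GMP (-1.24 ± 0.43, adjusted p = 0.0555); it passed with the near-empty library kept in (0.0459) or without Flt3 2-week GMP replicate 1 (0.0415). Gp1ba was at 6.90, 3.20 and 10.3 CPM, 2 of the 3 libraries above the 2.68 to 4.48 CPM of WT GMP, and was too low over all GMP libraries to be tested.

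Regulators and some receptors of the lineage were higher at 2 weeks as well. Of 9 tested regulator genes 4 rose in 2-week Flt3 GMP against WT and none fell: Gata2 by 2.77 ± 0.20, Runx1 by 1.74 ± 0.24, Gfi1b by 1.11 ± 0.42 and Gata1 by 1.09 ± 0.31. The Gfi1b call (adjusted p = 0.0468) was lost with no filter on low counts, with the filter of 5 CPM, in DESeq2 and in each of the 6 fits that left out 1 library (adjusted p up to 0.221). Of 6 tested receptor and adhesion genes 3 rose, among them the tetraspanin gene Cd9 by 1.82 ± 0.15 and the thrombin receptor family gene F2rl2 by 3.48 ± 0.42; Cd36 was at 104 to 184 CPM and had no count in WT GMP. The signalling adaptor genes Lat and Plek (pleckstrin) rose by 2.69 ± 0.43 and 1.88 ± 0.22, while Ptgs1 and Rasgrp2 fell by 1.21 ± 0.39 and 0.80 ± 0.16.

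Basophil and mast cell genes stood far apart in the same libraries. Their summed level over 8 genes was 57190 to 70530 CPM in 2-week Flt3 GMP, 1296 to 1611 CPM in WT GMP and 328 to 1092 CPM in the 8 later Flt3 GMP libraries, and their part in the changes of Itga2b, Vwf and the regulators was not tested. In 2-week Flt3 LSK the same sum was 431 to 2461 CPM, against 310 to 699 CPM in WT LSK. Tubb1 was at 0 in each 2-week GMP library.

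From 4 weeks on, Flt3 GMP held little Itga2b and Pf4, while the levels of Itgb3 and Vwf overlapped those of WT. Itga2b was at 2.22 to 18.1 CPM (median 6.46) in the 8 libraries of 4 to 8 weeks and Pf4 at 5.11 to 26.3 CPM (median 19.0), neither overlapping WT GMP or the 2-week libraries. Itgb3 was at 1.75 to 20.9 CPM (median 7.26) against 0.985 to 4.02 CPM in WT GMP, and Vwf at 0 to 7.78 CPM (median 3.17) against 0.996 to 5.91 CPM. Against these later times, 6 of 8 tested members were higher at 2 weeks, where 15.2% of all genes were called higher: Itga2b by 4.90 ± 0.22, Pf4 by 3.36 ± 0.42, Gp1bb by 3.29 ± 0.84, Vwf by 2.94 ± 0.45, Gp9 by 1.93 ± 0.55, and Gp5. Gp5 had no count in the 4-week and 6-week GMP libraries, so its fitted change depends on the prior count; as a bound, it was at least 8.17-fold lower at 4 weeks and at least 14.3-fold lower at 6 weeks than in WT GMP, with 3 counts over the group as the floor. The Gp9 call was lost without Flt3 2-week GMP replicate 3 (adjusted p = 0.0618). Selp (0.31 ± 0.55) and Itgb3 (-0.51 ± 0.56) did not differ beyond their error between 2 weeks and later.

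At the matched time of 4 weeks, 4 of 8 members were lower in Flt3 GMP than in WT GMP, where 8.3% of all genes were called lower. Itga2b was at 8.74, 18.1 and 14.7 CPM (lower by 1.76 ± 0.32), Pf4 at 26.2, 18.1 and 26.3 CPM (lower by 3.94 ± 0.55), and Selp at 1.75, 6.02 and 3.15 CPM (lower by 2.50 ± 0.63); Gp5 was the fourth. Averaged over the 4 times, 6 of 8 were lower, against 13.3% of all genes, and Itgb3 (1.31 ± 0.63) and Vwf (0.99 ± 0.60) did not pass. For Itga2b that average, -1.51 ± 0.23, joins a rise at 2 weeks and a fall later.

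**Figure D2:**
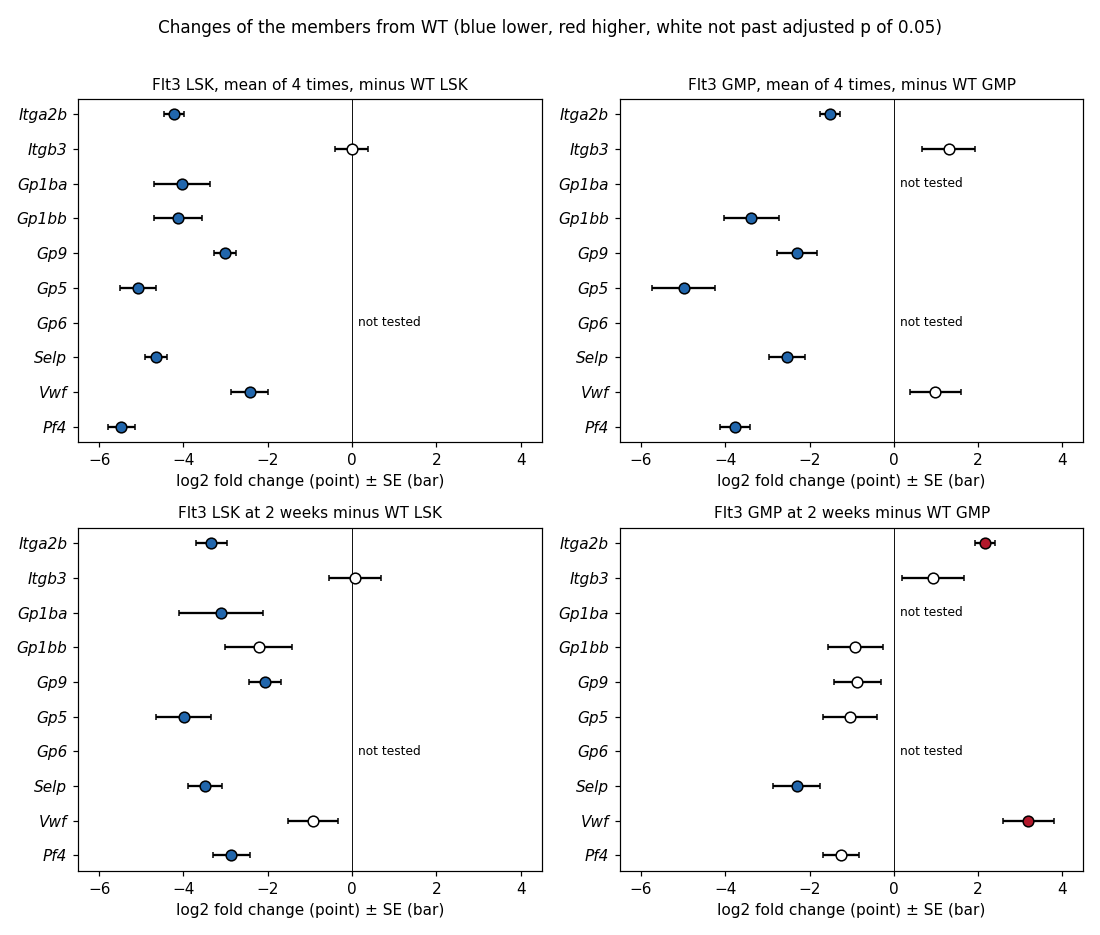
Log2 fold change (points) with its standard error (bars) of each gene between Flt3 and WT, for the mean over 2 to 8 weeks (top) and for 2 weeks alone (bottom), in LSK (left) and GMP (right); filled points passed an adjusted p of 0.05. The LSK panels hold only lower calls, while Itga2b (2.16) and Vwf (3.19) are called higher in 2-week GMP.

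The Flt3 effect, averaged over the 4 times, differed between the cell types for 3 of 9 tested members, where 5.55% of all genes had a more negative effect in LSK. The difference was -2.70 ± 0.37 for Itga2b (adjusted p = 1.58e-06), -3.42 ± 0.79 for Vwf (adjusted p = 0.00284) and -2.12 ± 0.54 for Selp (adjusted p = 0.00559). The Selp call was lost without Flt3 8-week GMP replicate 1 (adjusted p = 0.0797). For Pf4 the difference of -1.71 ± 0.57 fell short (adjusted p = 0.0533) and passed without the 2-week libraries (0.0271), with the near-empty library (0.0478) and in 7 of the 29 fits that left out 1 library (0.0244 to 0.0497).

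The balance between 2 members that both mark the lineage was followed within each library, where it does not depend on library scaling; it can depend on the kit, which is not given per library. Itga2b counts per Pf4 count were 0.228 to 0.269 in WT LSK and 0.105 to 0.170 in WT GMP. In 2-week Flt3 GMP the ratio was 3.01, 1.28 and 1.06, above every WT library, and in 2-week Flt3 LSK it was 0.266, 0.257 and 0.0761, none above the highest WT LSK value. In the 9 later Flt3 LSK libraries it was 0.40 to 1.79, above each WT LSK library, on low counts of both genes. In the 8 later Flt3 GMP libraries it was 0.0909 to 1.22 (median 0.613), also on low counts. That range overlapped both the 2-week Flt3 GMP and the WT GMP libraries. Within the second table it was 163 to 193 in Dnmt3a Flt3 GMP, 33.7 to 75.7 in Dnmt3a Flt3 LSK, 8.24 to 81.8 in Npm1 Flt3 GMP and 16.3 to 154 in Npm1 Flt3 LSK. The Lin- cells were lower, at 0.739 to 1.76 with vehicle and 0.758 to 2.56 with TAM.

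**Figure D3:**
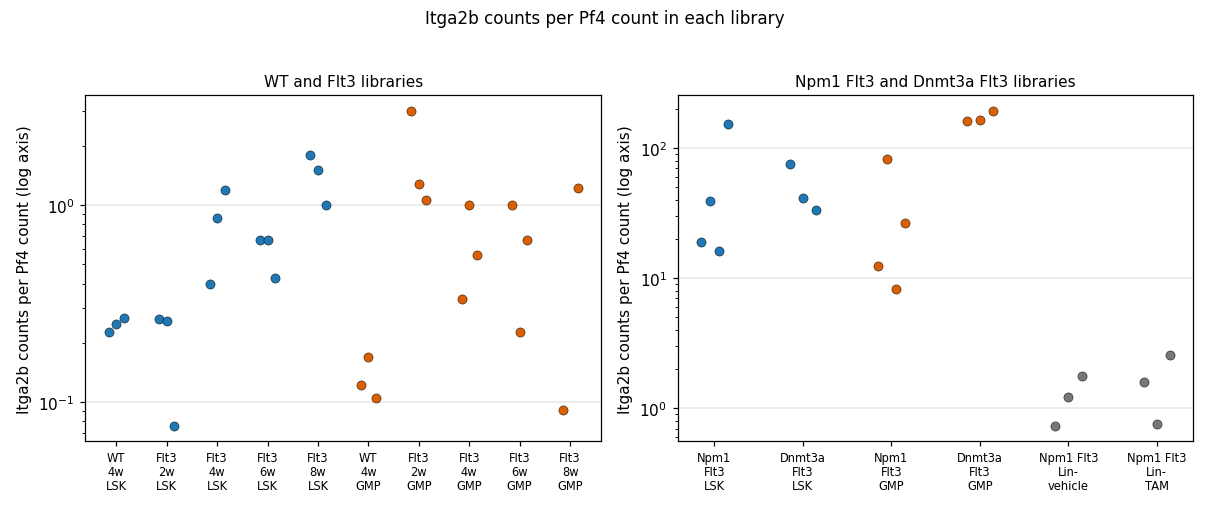
Counts of Itga2b per count of Pf4 in each library, on logarithmic axes that differ between the panels (left, WT and Flt3 libraries; right, Npm1 Flt3 and Dnmt3a Flt3 libraries); blue is LSK, orange GMP and grey Lin- cells. Flt3 GMP at 2 weeks (1.06 to 3.01) stands above WT GMP (0.105 to 0.170) and overlaps later Flt3 GMP (0.0909 to 1.22). Dnmt3a Flt3 GMP (163 to 193) stands above Npm1 Flt3 GMP.

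GMP cells with Npm1 or Dnmt3a mutations beside Flt3 differed in which members they held, while in LSK no member passed by edgeR. The GMP fit held the 2 Dnmt3a Flt3 libraries without conflicting labels. In GMP, Itga2b was at 128, 169.3 and 158.4 CPM in the 3 libraries titled Dnmt3a Flt3 and at 9.15, 23.8, 3.48 and 42.4 CPM in Npm1 Flt3; it was lower in Npm1 Flt3 by 2.91 ± 0.78 (adjusted p = 0.035). The groups did not overlap, but the call was lost without Dnmt3a Flt3 GMP replicate 1 or 3, without Npm1 Flt3 GMP replicate 1 or 2 (adjusted p 0.0714 to 0.144), or with no filter on low counts (0.201). Selp and Vwf went the opposite way. Selp was at 12.1, 26.8, 18.9 and 5.37 CPM in Npm1 Flt3 GMP and at 0.0905, 0.0389 and 0.0546 CPM in Dnmt3a Flt3 GMP, higher by 7.74 ± 0.95 (adjusted p = 0.00234). Vwf was at 46.2, 27.8, 23.2 and 48.5 CPM against 0.672, 2.19 and 0.774 CPM, higher by 5.61 ± 0.49 (adjusted p = 0.000618).

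These were 3 calls among 7 tested members, where 12.5% of all genes were called higher and 8.22% lower in Npm1 Flt3 GMP. Both Selp and Vwf kept their calls in every fit that left out 1 library and with the 2 libraries of conflicting labels kept in. Of the 10 endothelial genes 9 were tested, 1 was lower in Npm1 Flt3 GMP, Tie1 (-2.51 ± 0.54), and none was higher. Their summed level was 137 to 195 CPM in Npm1 Flt3 GMP and 236 to 254 CPM in Dnmt3a Flt3 GMP. Most of that sum was Pecam1, at 116.1 to 174.1 CPM in Npm1 Flt3 GMP and 209.0 to 218.4 CPM in Dnmt3a Flt3 GMP. The difference between the sums therefore mainly follows this gene and does not describe the list as a whole. Sele was at 1.76 to 6.39 CPM against 0.753 to 1.46 CPM, without overlap but not called (1.79 ± 0.68, adjusted p = 0.109), and Cdh5 was at 0 to 0.898 CPM against 0 to 0.255 CPM. Basophil and mast cell genes summed to 132 to 359 CPM in Npm1 Flt3 GMP and to 1595 to 1866 CPM in Dnmt3a Flt3 GMP, and macrophage genes to 73.7 to 195 CPM and 39.7 to 59.9 CPM; their part was not tested. Of the other granule genes, F13a1, the factor XIII subunit also made by monocytes, was higher in Npm1 Flt3 GMP by 7.01 ± 0.45, and of the signalling genes the adaptor gene Lat was lower by 6.07 ± 0.89. Cd36 was at 89.4 to 286 CPM in Npm1 Flt3 GMP and at 0 to 0.364 CPM in Dnmt3a Flt3 GMP.

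Pf4 was low in GMP of both genotypes and did not separate them. It was at 0.291 to 1.59 CPM in Npm1 Flt3 GMP and at 0.789 to 1.03 CPM in Dnmt3a Flt3 GMP (-0.13 ± 1.03, adjusted p = 0.954). Gp1bb had no count in any of the 7 GMP libraries of these genotypes, and Gp5 had none in Npm1 Flt3 GMP and 14, 0 and 2 counts in Dnmt3a Flt3 GMP replicates 1 to 3.

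In LSK no member passed between Npm1 Flt3 and Dnmt3a Flt3 by edgeR, where 11.6% of all genes were called. Itga2b was at 10.0, 27.5, 20.0 and 66.6 CPM in Npm1 Flt3 LSK and at 87.0, 120 and 103 CPM in the libraries titled Dnmt3a Flt3 LSK, which did not overlap (-1.73 ± 0.62, adjusted p = 0.0998). At an unadjusted p under 0.05, edgeR gave 2 members, Itga2b (0.0183) and Itgb3 (0.0305), and DESeq2 called 3 after adjustment: Itga2b (-1.86), Itgb3 (0.99) and Pf4 (-2.07). Selp and Vwf, apart in GMP, overlapped in LSK: Selp was at 0.744, 8.32, 4.66 and 5.99 CPM against 0.923, 0.545 and 3.10 CPM.

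Npm1 Flt3 LSK and GMP were not called apart for any of 9 tested members by edgeR, where 4.62% of all genes were called. With the number in the sample codes as a block, which 3 pairs of these libraries share, the count was 0 as well. At an unadjusted p under 0.05 there were 4 members: Gp5 (0.0154), Gp9 (0.0181), Selp (0.0242) and Vwf (0.0391). DESeq2 called 1, Gp9, at 4.56, 8.07, 4.34 and 13.6 CPM in LSK and 1.83, 1.16, 0 and 1.19 CPM in GMP (2.69, adjusted p = 0.0214). Gp9 had no overlap between the cell types, while Selp (0.744 to 8.32 CPM in LSK, 5.37 to 26.8 CPM in GMP) and Vwf (0.289 to 24.5 CPM and 23.2 to 48.5 CPM) overlapped.

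**Figure D4:**
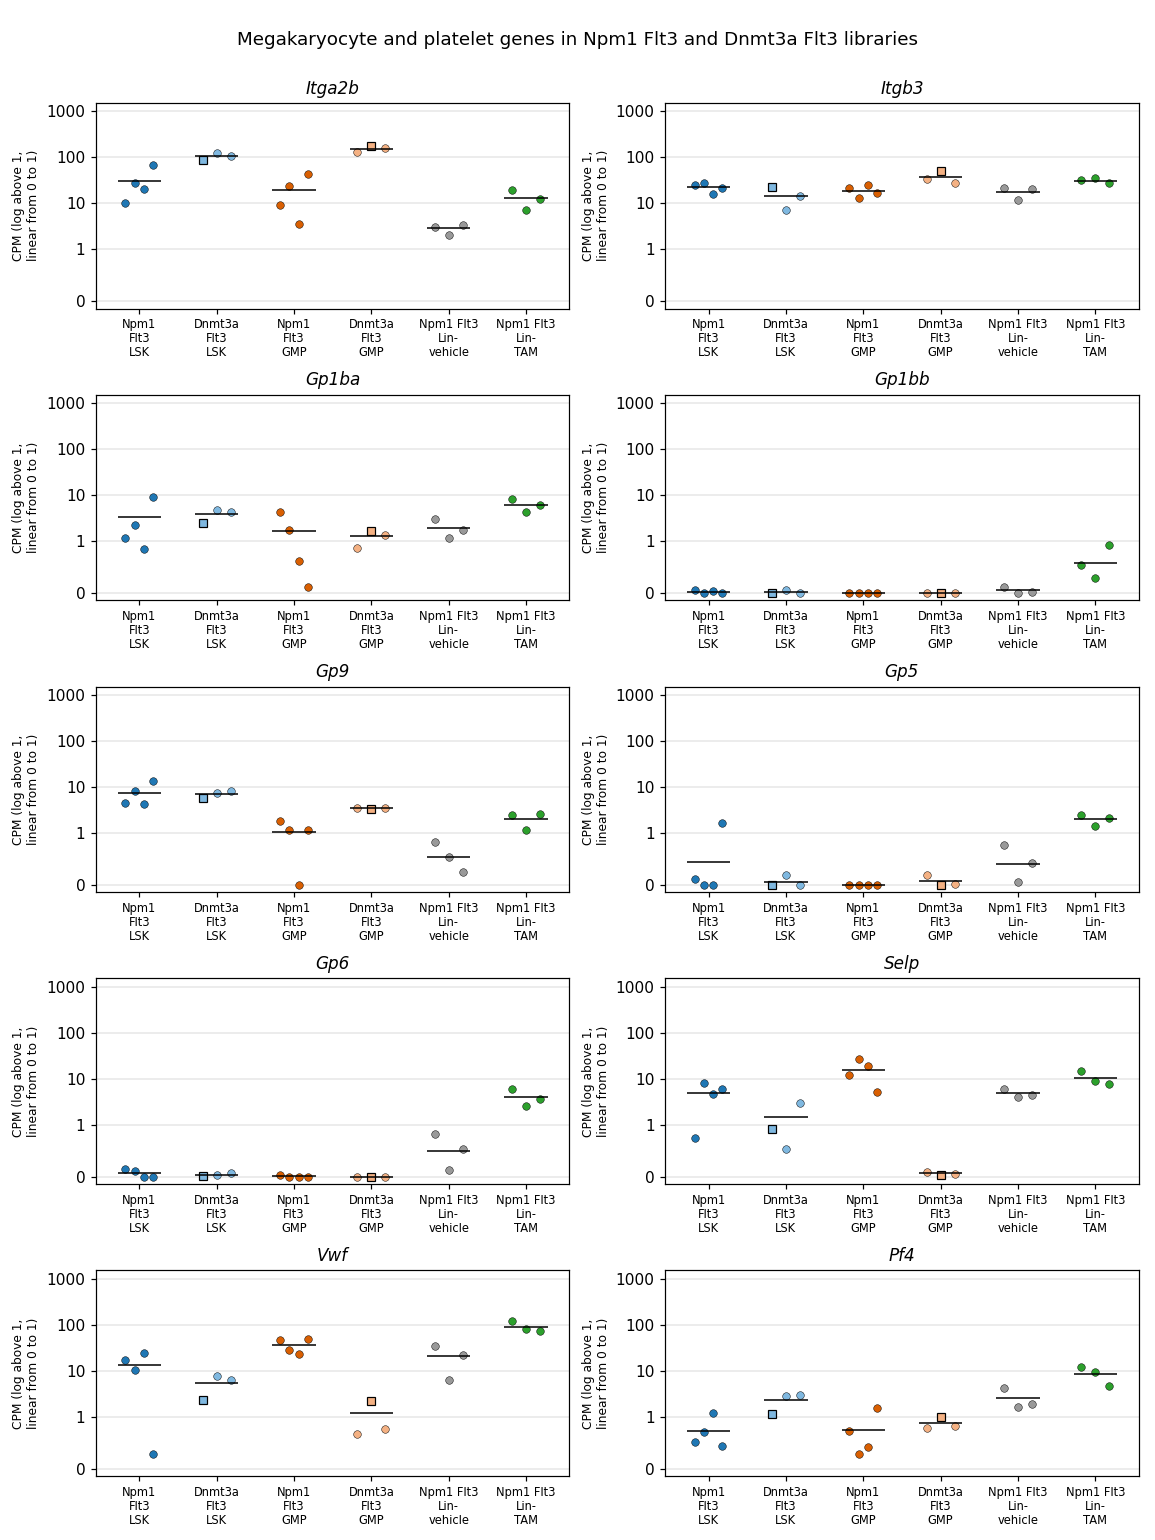
CPM of the 10 genes in each Npm1 Flt3 and Dnmt3a Flt3 library (points; squares are the 2 libraries with conflicting labels) with the group mean (line); the axis is logarithmic above 1 CPM and linear from 0 to 1. Selp (5.37 to 26.8 CPM) and Vwf (23.2 to 48.5 CPM) in Npm1 Flt3 GMP stand above Dnmt3a Flt3 GMP, and Gp6 is highest in TAM-treated Lin- cells.

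In Lin- cells of Npm1 Flt3 mice treated with tamoxifen, 2 of 9 tested members were higher than with vehicle and none was lower. Gp6, the collagen receptor, was at 6.18, 2.59 and 3.66 CPM with TAM and at 0.835, 0.126 and 0.538 CPM with vehicle, without overlap (2.01 ± 0.72, adjusted p = 0.0322). Vwf was at 118, 80.1 and 75.2 CPM against 34.9, 6.46 and 22.6 CPM (1.07 ± 0.39, adjusted p = 0.035). With the replicate number of the titles as a block, both passed (Gp6 2.13, adjusted p = 0.016, and Vwf 1.18, adjusted p = 0.0075). Deviations of same-numbered libraries from their group means correlated at 0.111 to 0.304. Differently numbered libraries were not compared, so this does not show that the number links them. The labels do not pair them and their sample codes differ. Neither call held in every fit that left out 1 library. No member was called without any 1 of TAM replicates 1, 2 and 3 or without vehicle replicate 3. Without vehicle replicate 2, 1 member was called. In all, 10.1% of genes were called higher and 21.3% lower.

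The size of these changes depended on scaling. The median of all 25269 genes lay at 0.56 on the log2 scale with the TMM factors used here and at 1.64 when libraries were scaled by their totals alone, a choice added after the data were seen, under which 81.5% of calls were higher in place of 32.1%. Against the TMM median of 0.56, the members' median was 0.73. Itga2b was at 19.2, 7.20 and 12.2 CPM with TAM and 3.10, 2.04 and 3.45 CPM with vehicle, yet differed by 0.96 ± 0.53 (adjusted p = 0.15) with TMM and by 2.17 (adjusted p = 0.0194) by library totals. Pf4 (12.1, 9.51 and 4.77 CPM against 4.20, 1.66 and 1.96), Gp1ba (8.37, 4.27 and 6.14 CPM against 3.08, 1.18 and 1.74) and Gp5 (2.52, 1.44 and 2.16 CPM against 0.763, 0.058 and 0.416) likewise did not overlap by CPM and did not pass. Vwf was not called with median-ratio size factors (0.84, adjusted p = 0.208) or in DESeq2 (0.127). Flt3 itself, whose mutant allele TAM is meant to delete, was at 83.3 to 182.6 CPM with TAM and 160 to 209 CPM with vehicle, counts that do not separate the alleles.

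Of the 10 regulator genes 2 rose with TAM and 4 fell. Gata1 was at 44.8 to 72.9 CPM with TAM and 0.155 to 3.53 CPM with vehicle, higher by 3.80 ± 0.69, while Mef2c, Nfe2 and Runx1 were lower by 2.29 ± 0.37, 1.58 ± 0.39 and 1.27 ± 0.39. Of 16 other receptor and adhesion genes 6 rose and 2 fell, with the ADP receptor gene P2ry12 higher by 3.28 ± 0.61 and Cd226 by 3.35 ± 0.44, and F2rl3, a thrombin receptor gene, lower by 2.49 ± 0.43. Of 12 other granule genes 4 rose and 2 fell, with Thbs1 (thrombospondin 1) higher by 3.23 ± 0.56 and Srgn lower by 1.74 ± 0.37. Of 10 cytoskeleton genes 1 rose, Myl9 by 4.71 ± 0.73, and 3 fell. These falls stand beside the 21.3% of all genes called lower. Under scaling by library totals the lower values of Runx1, Vamp8 and Tln1 turned to 0.0114, 0.0106 and 0.26.

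Markers of other cell types differed with TAM by CPM too, and their part was not tested. CPM are scaled by library totals alone, under which the median of all genes was itself higher with TAM, as given above. Higher values of a sum or gene here are to be read beside that shift. Erythroid genes summed to 855 to 1118 CPM with TAM and 207 to 345 CPM with vehicle, macrophage genes to 816 to 1342 CPM and 85.7 to 114 CPM, and stem cell genes to 141 to 223 CPM and 39.1 to 70.7 CPM. Of the erythroid genes, Tfrc made up most of the vehicle sum, at 168 to 320 CPM with TAM and 195 to 337 CPM with vehicle. Endothelial Cdh5 was at 6.87 to 23.6 CPM with TAM and 0.551 to 3.41 CPM with vehicle, beside Vwf. By CPM, the endothelial genes Emcn, Kdr, Tek, Tie1, Ramp2, Plvap and Sele were also higher with TAM, without overlap. Pecam1 went the other way, at 55.0 to 91.5 CPM with TAM and 145.2 to 183.3 CPM with vehicle. Egfl7 overlapped, at 7.77 to 10.4 CPM with TAM and 9.33 to 11.8 CPM with vehicle. The granulocyte gene Mpo was at 90.3 to 350 CPM and 2173 to 2750 CPM.

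Across the 29 WT and Flt3 libraries, 8 members followed the mean of the other 9 with a Pearson correlation of log2(CPM + 1) of 0.55 or above, given as a description since the libraries share cell types, genotypes and depth. Gp5 (0.90), Pf4 (0.89), Gp1bb (0.84) and Itga2b (0.83) were the closest, and Vwf (0.55) the loosest of the 8. Itgb3 (-0.27) did not follow, and Gp6 (0.02) had counts in 2 of the 29 libraries, 6 in all. Among genes outside the lists with a mean of at least 5 CPM, those most like the members' mean were the carboxylesterase gene Ces2g (0.92), Sdsl (0.90), the biliverdin reductase gene Blvrb (0.90), the lipid transporter gene Mfsd2b (0.86) and Def8 (0.86). Ces2g, as an example, was at 26.7 to 38.3 CPM in WT LSK, 4.93 to 9.39 CPM in WT GMP, 10.9 to 17.2 CPM in 2-week Flt3 GMP and 0 to 1.19 CPM in later Flt3 LSK.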

How the data were processed

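Gene counts were deposited as 2 tables of whole-number counts per gene, which the authors made with STAR and featureCounts on mm10, per the submitters' processing notes; versions are not given in the sources used here. CPM values are deposited counts divided by the library total, times 1000000. Each comparison was fitted over all genes that passed filterByExpr with edgeR 4.0.16 (robust quasi-likelihood, TMM) in R 4.3.3, calling adjusted p under 0.05; DESeq2 1.42.0 was an alternative. The LSK, GMP and second-table comparisons were fitted separately, and WT LSK against GMP and the cell type interaction over both cell types. The fits were tested on simulated data. Of 54 replicate pairs none agreed within sampling noise (lowest chi-square per degree of freedom 2.26). The labels do not state that replicates are separate mice, so p-values measure the spread between these samples. Deviations of same-numbered TAM and vehicle libraries correlated at 0.111 to 0.304 in 3 pairs, and differently numbered pairs were not compared. The reported fit has no block, and the fit with title numbers as a block is an alternative. The labels do not pair these libraries. Named list genes are up to 4 per list and comparison with the smallest p among those called. Windows of Itga2b and Gp1bb overlap annotated exons (GENCODE M21) and were not printed. The members and lists were chosen with earlier results of these data known. The values of 1 gene of these lists are not reported here.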

Additional observations from a re-analysis of the deposited data

Results flagged for a closer look

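In 18 sets of 4 libraries (1 member in Npm1 Flt3 LSK or GMP), a library stood apart from the other 3 in 3 cases. Chance alone marks about 1 in 20 such sets where values are normally distributed. CPM values were used without a log scale, and sets from the same libraries are not independent. Npm1 Flt3 LSK replicate 4 was highest for Gp1ba (9.05 CPM, the others 0.852 to 2.23) and for Gp5 (1.64 CPM, the others 0 to 0.105). Npm1 Flt3 GMP replicate 1 was highest for Gp6, at 0.0303 CPM from 3 counts; with the other 3 libraries at 0, any count would have marked it, so the chance rate does not apply. The same LSK replicate 4 also held the highest Itga2b (66.6 CPM) and Gp9 (13.6 CPM) of its group and the lowest Vwf (0.289 CPM).

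Effects of mutant Flt3 that differed between the cell types by the interaction test were those of Itga2b (-2.70, LSK minus GMP on the log2 scale), Selp (-2.12) and Vwf (-3.42). Levels within Flt3 libraries were tested as 2 weeks minus the mean of 4 to 8 weeks. Those that differed were in LSK the levels of Pf4 (3.47), Vwf (2.01), Selp (1.56), Gp9 (1.27) and Itga2b (1.16). In GMP they were those of Gp5 (5.27, a fitted value that depends on the prior count), Itga2b (4.90), Pf4 (3.36), Gp1bb (3.29), Vwf (2.94) and Gp9 (1.93). Itga2b, Vwf, Gp9 and Pf4 appear in both cell types. WT libraries were from 4 weeks only, so a change with time and a change in the effect of mutant Flt3 cannot be told apart. Whether the time effect itself differs between LSK and GMP was not tested.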

How the results depend on the processing

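Counts of called members stayed within 1.5 times of the values reported in 11 of the 14 comparisons under every alternative that kept all libraries. The exceptions were Npm1 Flt3 against Dnmt3a Flt3 LSK (0 as reported, 3 in DESeq2, 1 with the filter of 5 CPM, 1 with the replicate block on title numbers), Npm1 Flt3 LSK against GMP (0 as reported, 1 in DESeq2) and TAM against vehicle (2 as reported, 1 with median-ratio size factors, 1 in DESeq2). With the replicate block, members called were 8 in Flt3 LSK and 6 in Flt3 GMP against WT, and 3 for the interaction; the block changed no other count by over 1.5 times. Same-numbered WT and Flt3 4-week LSK libraries did not deviate together (correlation -0.142 to -0.105). Pairs by animal number in the codes deviated together only in part (-0.0552 to 0.209 in 14 pairs of the first table, -0.0164 to 0.314 in 4 of the second). The numbers were not taken as pairs in any reported fit. Leaving out 1 library at a time gave 2 to 6 calls for LSK at 2 weeks against later, 5 to 7 for GMP at 2 weeks against later, 3 to 4 for 2-week GMP against WT, 5 to 6 for 2-week LSK against WT, 7 to 8 and 3 to 4 for 4-week LSK and GMP, 2 to 4 for the interaction, 5 to 6 for Flt3 GMP, 8 to 8 for Flt3 LSK, 5 to 5 for WT LSK against GMP, 2 to 3 for Npm1 Flt3 against Dnmt3a Flt3 GMP, 0 to 1 for both Npm1 Flt3 LSK comparisons and 0 to 3 for TAM. Where leaving out a library leaves 1 in a group, that library is assumed to vary like the others.

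Directions that reversed were those of Runx1 (0.0114), Vamp8 (0.0106) and Tln1 (0.26) with TAM under scaling by library totals, and the cause was not tested. In Npm1 Flt3 against Dnmt3a Flt3 LSK, median-ratio size factors moved the share of calls that were higher from 67.4% to 57.9%. Genes called there were 2251 as reported, 4624 in DESeq2, 3496 with the filter of 5 CPM, 3465 with the block and 3597 with the libraries of conflicting labels; in GMP they were 3571, with 2127 with the block and 5403 with those libraries; Npm1 Flt3 LSK against GMP gave 980, 1069 with the block on the code number and 2192 in DESeq2. TMM scaling kept 145 of 160 group levels within 1 SD of the unscaled CPM. Depth limits the genes with few counts: in the first table Gp6 had 6 counts in all, and Gp1ba and Gp5 were each at 0 in 10 of 29 libraries.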
